A study of Arabidopsis thaliana with 6 samples.

Results

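The subject is 10 Arabidopsis thaliana genes for the inner ring and the central channel of the nuclear pore, chosen by gene identifier from the 32833 genes of the count table: NUP205, NUP155, NUP35, NUP93A, NUP93B, NUP62, NUP54, NUP58, NUP98A and NUP98B. The rule itself is a list of identifiers with no threshold on a measured value, but it was drawn up with earlier results of these data known. Messenger RNA was sequenced from whole seedlings, 7 days old, of a gbpl3 mutant (3 libraries) and of the Col-0 wild type (3 libraries). Both genotypes were left untreated on half-strength MS with 1% sucrose. The series title places GBPL3, a guanylate-binding protein, in the basket of the nuclear pore. The numbers 1 to 3 stand in the genotype labels of the mutant samples and were read as replicates of 1 mutant, because the design text speaks of triplicates. They could also name alleles, in which case the mutant SD and the p-values cover the spread between alleles. The kind of gbpl3 allele is not given in the sources used here, and nothing in the labels ties libraries to separate cultures. The p-values therefore cover the spread among these 6 libraries, which may be technical only.

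The nuclear pore complex is the gate between nucleus and cytoplasm and is built from many copies of proteins called nucleoporins. The inner ring lines the pore and holds it to the membrane. Its large scaffold proteins are NUP205 and NUP188, NUP155 and NUP35 contact the membrane, and NUP93 anchors the channel proteins to the ring. NUP62, NUP54 and NUP58 form a coiled-coil trimer whose phenylalanine-glycine repeats fill the channel and bind transport receptors. NUP98 carries such repeats as well and links ring, outer ring and channel, and its name in the annotation, nucleoporin autopeptidase, refers to a domain that cuts its own chain. These roles were worked out largely in yeast and vertebrates. Arabidopsis has a pair of NUP93 genes and a pair of NUP98 genes.

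Libraries held 9530643 to 12911891 counts. GBPL3 (AT5G46070) stood at 14.8, 18.8 and 15.6 normalised CPM (each count as parts of 1e6 of its library, after scaling for library composition) in gbpl3 replicates 1 to 3, against 68.9, 67.9 and 66.0 CPM in wild-type replicates 1 to 3, a log2 fold change of -2.04 (SE 0.12, adjusted p = 5.11e-09). Unless another tool is named, adjusted p-values of genes come from the quasi-likelihood test of edgeR and were adjusted by Benjamini-Hochberg over the 20677 genes tested. Markers of green tissue, root and dividing cells were detected in every library. LHCB1.3, a light-harvesting gene, averaged 22771 CPM in gbpl3 and 17675 CPM in wild type. Seed storage and oil body genes summed to 19.1, 95.7 and 224 CPM in gbpl3 replicates 1 to 3, and to 0.262 to 2.05 CPM in wild type, where 6 or 7 of the 9 were at 0. Among wild-type libraries, replicate 2 stood apart on the second principal component, at -42.6 against 28.4 and 10.1 for replicates 1 and 3.

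Since NUP98 and NUP93 are each a pair of related genes, the first question was whether reads could be told apart. Coding sequences of NUP98A and NUP98B were 77.0% identical over 2877 aligned bases, and those of NUP93A and NUP93B 84.5% over 2580 bases. The longest identical coding run was 29 bases in the NUP98 pair and 35 bases in the NUP93 pair, shown here from the RefSeq TAIR10.1 genome with the identical run in capitals and 15 coding bases on each side. The NUP98A run lies in a coding exon at chr1:3408506-3408534 on the minus strand and the NUP98B run in a coding exon at chr1:21928206-21928234 on the plus strand.
NUP98A: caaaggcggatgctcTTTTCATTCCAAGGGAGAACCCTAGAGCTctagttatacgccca
NUP98B: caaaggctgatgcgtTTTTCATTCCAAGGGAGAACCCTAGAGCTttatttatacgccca
The NUP93 runs are joined across an intron in both genes, at chr2:17353948-17354085 and chr3:21224449-21224569, both on the minus strand.
NUP93A: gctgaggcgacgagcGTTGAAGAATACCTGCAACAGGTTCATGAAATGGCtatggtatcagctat
NUP93B: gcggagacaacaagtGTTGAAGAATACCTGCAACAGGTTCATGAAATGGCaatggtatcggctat
No window of 50 bases inside a block of exon sequence, from any of the 10 genes, occurred a second time in the genome. A read that matches 50 bases of such a block in a NUP98 or NUP93 gene without error therefore has 1 place only. Windows across splice junctions or in introns were not searched.

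Of the 10 genes, all of which passed the filter on low counts, 1 rose and 1 fell in gbpl3 seedlings. NUP98B rose 1.96-fold and NUP62 fell 1.39-fold, while 8 did not pass the test. Over all genes 10.7% passed, 6.06% higher and 4.69% lower, and 2 calls among 10 genes are too few to set the group apart from that background. The median log2 fold change of the 10 genes was -0.15, against -0.0034 for all genes, and their median absolute log2 fold change was 0.205, against 0.205 for all genes. Log2 fold changes were below 0 in 8 of the 10, against 50.5% of all genes, and 9 of the 10 lay within 0.5 of 0, as did 83% of all genes. At an unadjusted p under 0.05 there were 5 genes of the 10, 1 higher and 4 lower, and 23.6% of all genes. Counts of the 10 genes together came to 473, 484 and 453 CPM in gbpl3 replicates 1 to 3 and to 516, 489 and 474 CPM in wild-type replicates 1 to 3, ranges that overlap.

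**Figure D1:**
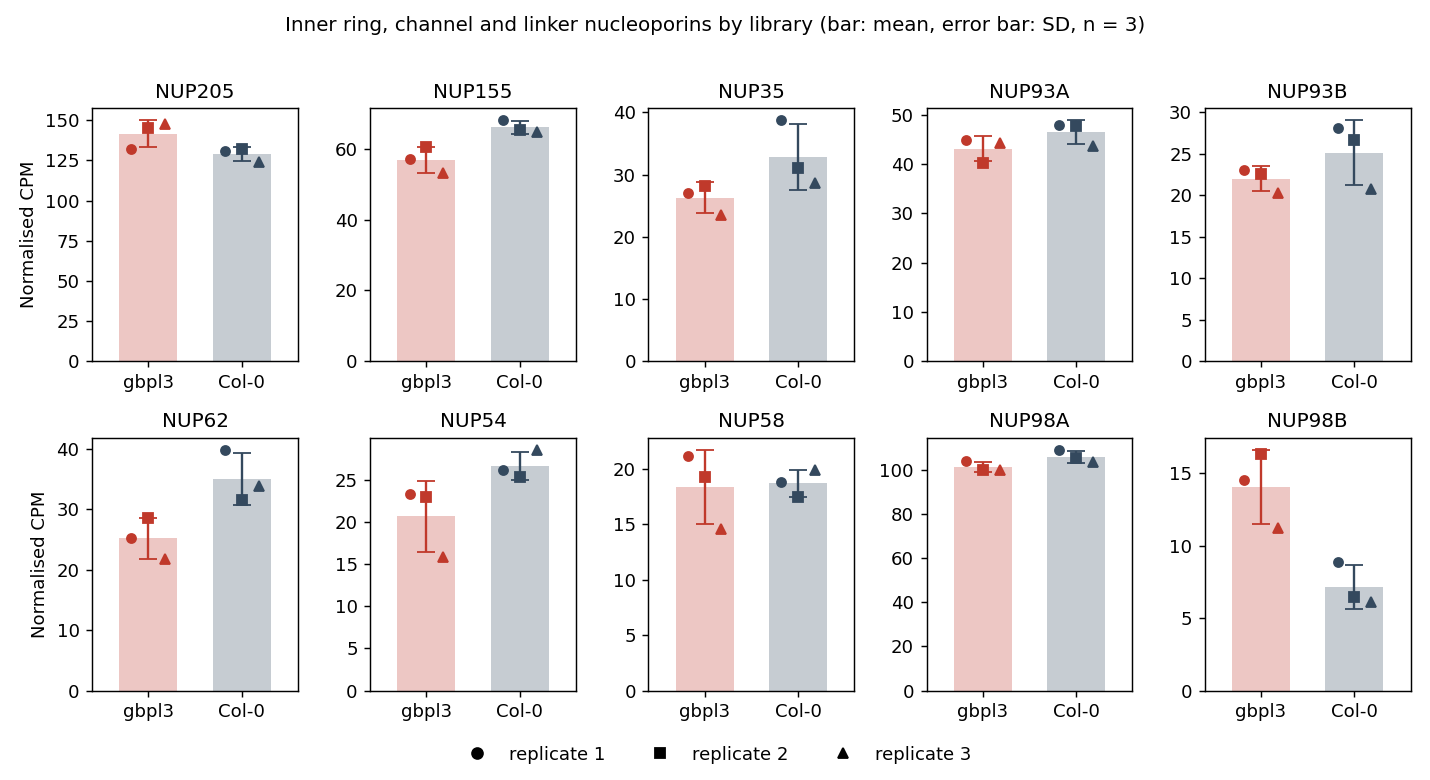
Normalised CPM of the 10 genes in each library, with gbpl3 left and Col-0 right in every panel; points are replicates 1 to 3, bars are means and error bars are SD (n = 3). All gbpl3 points of NUP98B (11.3 to 16.3 CPM) lie above all Col-0 points (6.13 to 8.90 CPM), and those of NUP62 (21.8 to 28.5 CPM) lie below (31.5 to 39.8 CPM).

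NUP98B (AT1G59660, chr1:21923986-21929437, plus strand, 14 blocks of exon sequence) is the less expressed of the NUP98 genes. It had 154, 211 and 121 counts in gbpl3 replicates 1 to 3, against 102, 79 and 60 counts in wild-type replicates 1 to 3. Scaled to library size, these were 14.6, 16.3 and 11.3 CPM in gbpl3 and 8.90, 6.49 and 6.13 CPM in wild type. Every gbpl3 library was above every wild-type library. The mean was 14.1 ± 2.58 CPM in gbpl3 and 7.17 ± 1.50 CPM in wild type (SD, n = 3 each), and the log2 fold change was 0.97 (SE 0.20, 95% interval 0.54 to 1.40, adjusted p = 0.00509). The call held when any 1 library was left out (adjusted p = 0.00136 to 0.0332). It ended when limma was run on the deposited FPKM values (fragments per kilobase of transcript, scaled to library size), a test that called fewer genes in all. The log2 fold change was then 0.62 on the log2(FPKM + 1) scale (adjusted p = 0.0858, and 0.116 with no filter) and 0.86 on the log2(FPKM + 0.1) scale (adjusted p = 0.0876). No annotated gene overlaps NUP98B. Its neighbour at lower coordinates, CW14 (AT1G59650), lies 972 bases away and had 15.6 ± 0.238 CPM in gbpl3 and 15.1 ± 0.86 CPM in wild type (adjusted p = 0.89). The neighbour at higher coordinates, GSTU15 (AT1G59670), had 1 count over the 6 libraries.

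NUP98A (AT1G10390, chr1:3406956-3412874, minus strand) encodes the other NUP98 protein. It stood at 104, 100.1 and 100.1 CPM in gbpl3 replicates 1 to 3 and at 109, 105 and 104 CPM in wild-type replicates 1 to 3. Relative to the mean, these are the tightest values of the 10 genes. The SD was 2.21% of the mean in gbpl3 and 2.61% in wild type, where NUP155 had 2.63%. The genotypes overlap in CPM. The log2 fold change was -0.06 (SE 0.09, adjusted p = 0.752), with a 95% interval of -0.26 to 0.13. That interval and the one of NUP98B do not meet. Per kilobase of exon, NUP98B made up 13.0%, 14.9% and 10.7% of the NUP98 pair in gbpl3 replicates 1 to 3, against 8.03%, 6.19% and 5.95% in wild-type replicates 1 to 3. The share averaged 12.9 ± 2.06% in gbpl3 and 6.72 ± 1.14% in wild type (SD, n = 3 each), apart in all libraries. An exact two-sided permutation test over the 6 libraries gave p = 0.1, the smallest value that 3 against 3 libraries allow (0.167 adjusted over 5 such proportions). NUP98A was the larger part of the pair in all 6 libraries. On the opposite strand, AT1G10395 shares 233 exon bases with NUP98A and had 510 counts over the 6 libraries, against 7013 for NUP98A.

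**Figure D2:**
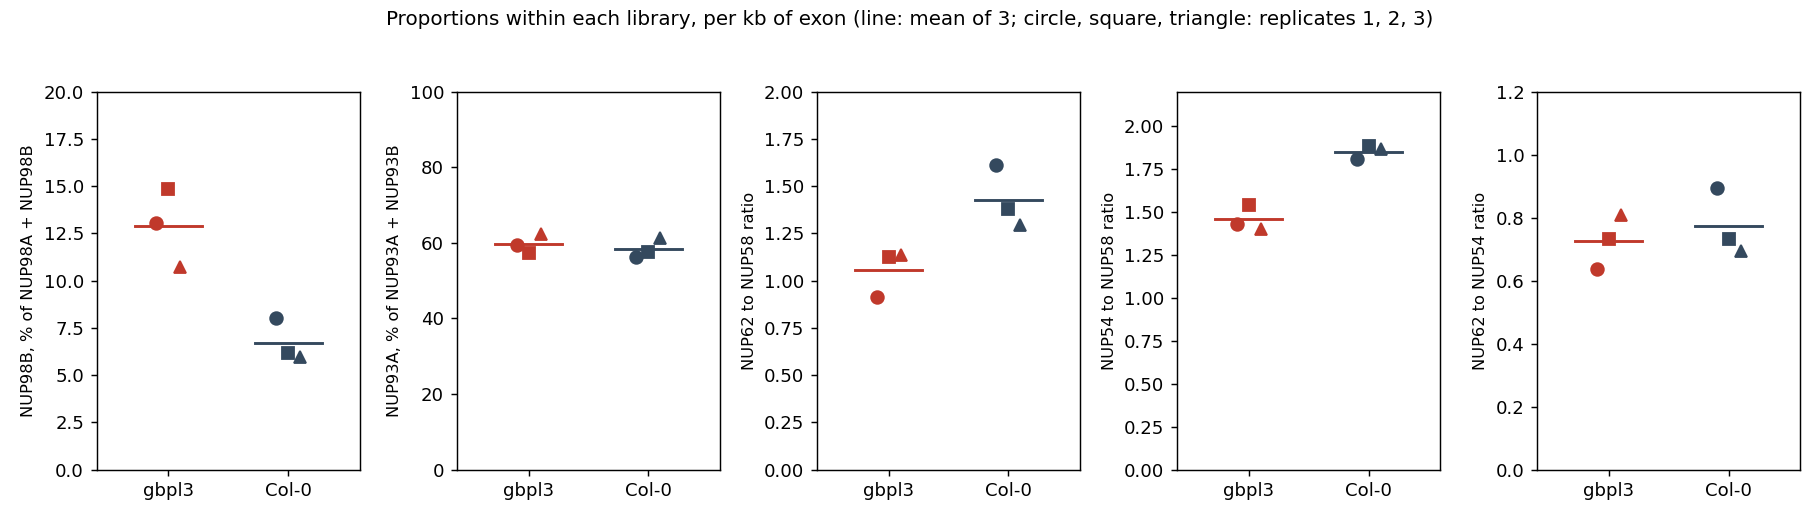
Proportions within each library on the scale of counts per kilobase of exon, with gbpl3 left and Col-0 right; points are replicates 1 to 3 and lines are means. The NUP98B share (10.7% to 14.9% in gbpl3, 5.95% to 8.03% in Col-0) and the ratios of NUP62 and NUP54 to NUP58 are apart between genotypes, whereas the NUP93A share and the ratio of NUP62 to NUP54 overlap.

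The 250 bases before the annotated start are shown for the NUP98 pair, since 1 gene of the pair was called and the other was not. The sequences are from the RefSeq TAIR10.1 genome and read toward the gene. Capitals mark matches on either strand to the motifs searched.
NUP98A, chr1:3412875-3413124, minus strand: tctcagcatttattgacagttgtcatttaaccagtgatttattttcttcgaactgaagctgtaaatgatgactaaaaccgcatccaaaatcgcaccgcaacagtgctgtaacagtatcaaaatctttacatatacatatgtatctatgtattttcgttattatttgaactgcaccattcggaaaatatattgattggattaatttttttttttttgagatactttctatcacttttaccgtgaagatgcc
NUP98B, chr1:21923736-21923985, plus strand: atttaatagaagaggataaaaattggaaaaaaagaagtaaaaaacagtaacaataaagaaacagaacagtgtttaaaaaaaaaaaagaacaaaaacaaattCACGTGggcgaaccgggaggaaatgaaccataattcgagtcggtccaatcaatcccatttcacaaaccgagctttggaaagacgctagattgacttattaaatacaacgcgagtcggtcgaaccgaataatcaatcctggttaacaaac
The letters searched on both strands were the G-box CACGTG, the TATA box TATAAA, the site II element TGGGCC, the E2F site TTTCCCGC, the telo box AAACCCTA and the MSA core AACGG, the last 4 of which are known from promoters of genes used by growing or dividing cells. The NUP98B window held 1 G-box, starting 149 bases before the gene, and the NUP98A window held no match. A G-box was in the same window of 7.05% of 20626 tested genes and in 1 of the 10 pore genes. The site II element was in 15.8% of all windows and in those of NUP35 and NUP62. The MSA core was in 21.6% of all windows and, among the 10, in that of NUP62, at 115 and 27 bases before the gene. The letters of the TATA box, on either strand and anywhere in the window, were in 45.0% of all windows. They were in 4 of the 10, NUP155, NUP35, NUP54 and NUP58, and in NUP35 on the opposite strand only. The E2F site (0.611% of all windows) and the telo box (3.58%) were in none of the 10. No matches overlapped each other. Some windows lie partly or wholly in another annotated gene, namely those of NUP62 (AT2G44993), NUP93A (AT2G41630), NUP93B (AT3G57360) and NUP58 (AT4G37120).

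NUP62 (AT2G45000, chr2:18564017-18567892, plus strand), the repeat protein after which the channel trimer is usually named, had 267, 369 and 234 counts in gbpl3 replicates 1 to 3, against 456, 384 and 330 counts in wild-type replicates 1 to 3. Scaled, it stood at 25.3, 28.5 and 21.8 CPM in gbpl3 and at 39.8, 31.5 and 33.7 CPM in wild type. All gbpl3 libraries were below all wild-type libraries. Means were 25.2 ± 3.39 CPM in gbpl3 and 35.0 ± 4.26 CPM in wild type (SD, n = 3 each), with a log2 fold change of -0.47 (SE 0.13, 95% interval -0.75 to -0.19, adjusted p = 0.0297). The call ended without gbpl3 replicate 1 (adjusted p = 0.0938), gbpl3 replicate 3 (0.17), wild-type replicate 1 (0.125) or wild-type replicate 3 (0.0692), with the replicate number as a block (0.055) and with limma on FPKM (0.0845 to 0.119), while the log2 fold change stayed between -0.57 and -0.37 over all settings.

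Reads on bases shared with overlapping genes may have been gained or lost in the counts of NUP62. AT2G44993, a gene on the opposite strand, shares 1100 of the 2619 exon bases of NUP62, and the strand setting of the counting is not given in the sources used here. AT2G44993 had 177, 188 and 138 counts in gbpl3 replicates 1 to 3, against 255, 277 and 181 counts in wild-type replicates 1 to 3. It averaged 14.7 ± 1.97 CPM in gbpl3 and 21.2 ± 2.32 CPM in wild type (log2 fold change -0.53, SE 0.15, adjusted p = 0.0314), so the overlapping pair was lower together. On the other side, AT2G45010 shares 41 exon bases on the same strand and had a log2 fold change of -0.09 (adjusted p = 0.778).

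NUP54 (AT1G24310) and NUP58 (AT4G37130) complete the channel trimer. NUP54 stood at 23.3, 22.9 and 15.8 CPM in gbpl3 replicates 1 to 3 and at 26.2, 25.3 and 28.5 CPM in wild-type replicates 1 to 3. The genotypes do not overlap, but the difference missed the threshold (log2 fold change -0.36, SE 0.15, 95% interval -0.68 to -0.05, adjusted p = 0.139), and gbpl3 replicate 3 was far below the other mutant libraries. Without that library the log2 fold change of NUP54 was -0.20 (adjusted p = 0.505), the value nearest 0. With any single library left out it ranged from -0.45 to -0.20 (adjusted p = 0.119 to 0.505). NUP58 stood at 21.1, 19.3 and 14.6 CPM in gbpl3 and at 18.8, 17.4 and 19.8 CPM in wild type. It again had its lowest value in gbpl3 replicate 3, and the genotypes overlap. Its log2 fold change was -0.02 (95% interval -0.35 to 0.30, adjusted p = 0.955). It was 0.12 without gbpl3 replicate 3.

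Within a library, the trimer genes were compared on the scale of counts per kilobase of exon. The ratio of NUP62 to NUP58 was 0.911, 1.13 and 1.13 in gbpl3 replicates 1 to 3, against 1.61, 1.38 and 1.29 in wild-type replicates 1 to 3. The ratio of NUP54 to NUP58 was 1.43, 1.54 and 1.40 in gbpl3, against 1.81, 1.88 and 1.86 in wild type. Both ratios were lower in every gbpl3 library (exact two-sided permutation p = 0.1 each, the smallest possible, and 0.167 adjusted over the 5 proportions). The ratio of NUP62 to NUP54 averaged 0.726 ± 0.0856 in gbpl3 and 0.773 ± 0.105 in wild type (SD, n = 3 each, exact permutation p = 0.6). These ratios were chosen after the values of the 3 genes had been seen. NUP54 shares 91 exon bases with AT1G24320 on the opposite strand, which had 319 counts over the 6 libraries, whereas no gene overlaps NUP58.

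None of the 5 inner ring genes was called by edgeR, where 10.7% of all genes were, and 2 had an unadjusted p under 0.05, NUP155 and NUP35, where 23.6% of all genes did. NUP205 (AT5G51200), the largest gene of the set with 14915 bases and listed in RefSeq as EMB3142, an embryo-defective locus, stood at 132, 145 and 148 CPM in gbpl3 replicates 1 to 3 and at 131, 132 and 124 CPM in wild-type replicates 1 to 3. The libraries do not overlap, by a margin of under 1 CPM, and the log2 fold change was 0.14 (SE 0.10, 95% interval -0.06 to 0.34, adjusted p = 0.431). Of the 5 inner ring genes, it alone had a log2 fold change above 0.

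NUP155 (AT1G14850) stood at 57.1, 60.5 and 53.1 CPM in gbpl3 replicates 1 to 3 and at 68.0, 65.3 and 64.8 CPM in wild-type replicates 1 to 3. The genotypes are apart, with a log2 fold change of -0.21 (SE 0.10, 95% interval -0.43 to -0.0035, adjusted p = 0.202). NUP35 (AT3G16310), named in RefSeq for its MPPN domain, stood at 27.1, 28.2 and 23.4 CPM in gbpl3 and at 38.7, 31.0 and 28.7 CPM in wild type. The highest mutant library lies just under the lowest wild-type library, and the spread within wild type was wide (log2 fold change -0.32, SE 0.14, adjusted p = 0.148). Without wild-type replicate 1, its highest library, the log2 fold change of NUP35 was -0.19 (adjusted p = 0.505), the value nearest 0. With any single library left out it ranged from -0.41 to -0.19 (adjusted p = 0.116 to 0.505).

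Both NUP93 genes, which anchor the channel trimer in the ring, were a little lower in gbpl3 on average, and neither passed the test. NUP93A (AT2G41620) stood at 44.9, 40.2 and 44.4 CPM in gbpl3 replicates 1 to 3 and at 48.0, 47.8 and 43.7 CPM in wild-type replicates 1 to 3 (log2 fold change -0.11, SE 0.11, adjusted p = 0.594). NUP93B (AT3G57350) stood at 23.1, 22.6 and 20.3 CPM in gbpl3 and at 28.1, 26.6 and 20.7 CPM in wild type (log2 fold change -0.20, SE 0.14, adjusted p = 0.438). Both overlap between genotypes in CPM. The log2 fold change of NUP93B was -0.11 with wild-type replicate 1 left out and -0.32 with wild-type replicate 3 left out. Per kilobase of exon, NUP93A made up 59.6 ± 2.48% of the pair in gbpl3 and 58.4 ± 2.66% in wild type (SD, n = 3 each, exact two-sided permutation p = 0.6). Neighbours on the opposite strand share 729 exon bases with NUP93A (AT2G41610, 32 counts over the 6 libraries) and 99 with NUP93B (AT3G57340, 1929 counts).

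Apart from calls, 6 of the 10 genes had no overlap between genotypes, 2 higher in gbpl3 (NUP98B and NUP205) and 4 lower (NUP62, NUP54, NUP155 and NUP35). Over all tested genes 28.1% had none, 14.5% higher and 13.6% lower. Among the mutant libraries, replicate 3 had the lowest CPM in 8 of the 10 genes and replicate 1 or 2 in 1 each. Among the wild-type libraries, replicate 3 had the lowest in 7 and replicate 1 the highest in 7. No share over all tested genes is given beside these counts, so they do not set the 10 genes apart. With gbpl3 replicate 3 left out, where seed storage RNA was highest, NUP98B was the only call among the 10 (log2 fold change 1.11, adjusted p = 0.0075). NUP98B was likewise the only call without gbpl3 replicate 1, where seed storage RNA was lowest among the mutant libraries, and without wild-type replicate 1 or 3. Both calls stood without gbpl3 replicate 2. They also stood without wild-type replicate 2 (NUP98B, 0.90, adjusted p = 0.01, and NUP62, -0.54, adjusted p = 0.0135).

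Levels of different genes were compared as CPM per kilobase of exon, with exons of all transcripts of a gene merged. In gbpl3 the order of means was NUP98A (26.2), NUP205 (23.5), NUP35 (17.4), NUP54 (13.4), NUP155 (11.2), NUP93A (11.1), NUP62 (9.62), NUP58 (9.20), NUP93B (7.53) and NUP98B (3.88). In wild type it was NUP98A (27.3), NUP35 (21.8), NUP205 (21.4), NUP54 (17.3), NUP62 (13.4), NUP155 (13.0), NUP93A (12.0), NUP58 (9.37), NUP93B (8.61) and NUP98B (1.98). Neighbours from NUP54 down to NUP93B overlapped in their gbpl3 libraries, so their order there is not resolved. In wild type, NUP35 overlapped NUP205, NUP62 overlapped NUP155 and NUP58 overlapped NUP93B, and the other neighbours were apart. On this scale NUP98A was highest and NUP98B lowest in every library of both genotypes. The top place depends on the scale. On the deposited FPKM, NUP205 was above NUP98A in gbpl3 replicates 2 and 3 (21.3 against 19.0 FPKM in replicate 2), and NUP35 was above NUP98A in wild-type replicates 1 and 2 (26.7 against 21.4 FPKM in replicate 1), while NUP98B was lowest in all 6 libraries.

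**Figure D3:**
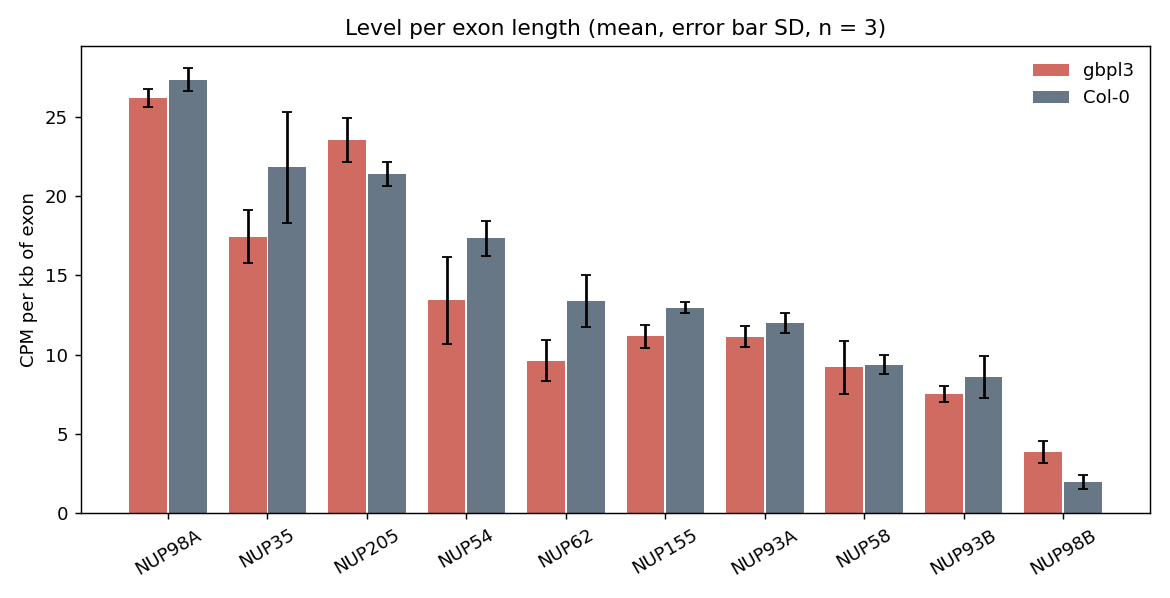
Mean CPM per kilobase of exon for the 10 genes in gbpl3 (left bars) and Col-0 (right bars), with SD as error bars (n = 3), ordered by the Col-0 mean. NUP98A stands at 26.2 and 27.3 and NUP98B at 3.88 and 1.98, the ends of the range in both genotypes.

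Of 24 other genes of the nuclear pore, which cover the outer ring, basket, cytoplasmic side and membrane and NUP188 of the inner ring, 1 fell, none rose by edgeR and 23 did not pass. At an unadjusted p under 0.05 there were 3 lower and 1 higher. Over all genes 10.7% were called and 23.6% had an unadjusted p under 0.05. GP210 (AT5G40480), a pore protein that spans the membrane, stood at 75.9, 80.1 and 58.5 CPM in gbpl3 replicates 1 to 3 and at 107, 103 and 91.7 CPM in wild-type replicates 1 to 3. It was lower in every mutant library, with a log2 fold change of -0.49 (SE 0.12, adjusted p = 0.0123), and the call ended without gbpl3 replicate 3 (log2 fold change -0.36, adjusted p = 0.103) and with limma on FPKM (adjusted p = 0.0725 to 0.104). NUP188 (AT4G38760), like NUP205 a large scaffold protein of the inner ring, stood at 79.7 ± 10.6 CPM in gbpl3 and 81.6 ± 7.81 CPM in wild type (log2 fold change -0.03, adjusted p = 0.912). The median log2 fold change of the 24 genes was -0.20, with 22 below 0, where 50.5% of all genes were. In the inner ring and channel set the median was -0.15, with 8 of 10 below 0. The largest positive value among the 24 was 0.37, for the export factor RAE1 (adjusted p = 0.0902), against 0.97 for NUP98B.

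**Figure D4:**
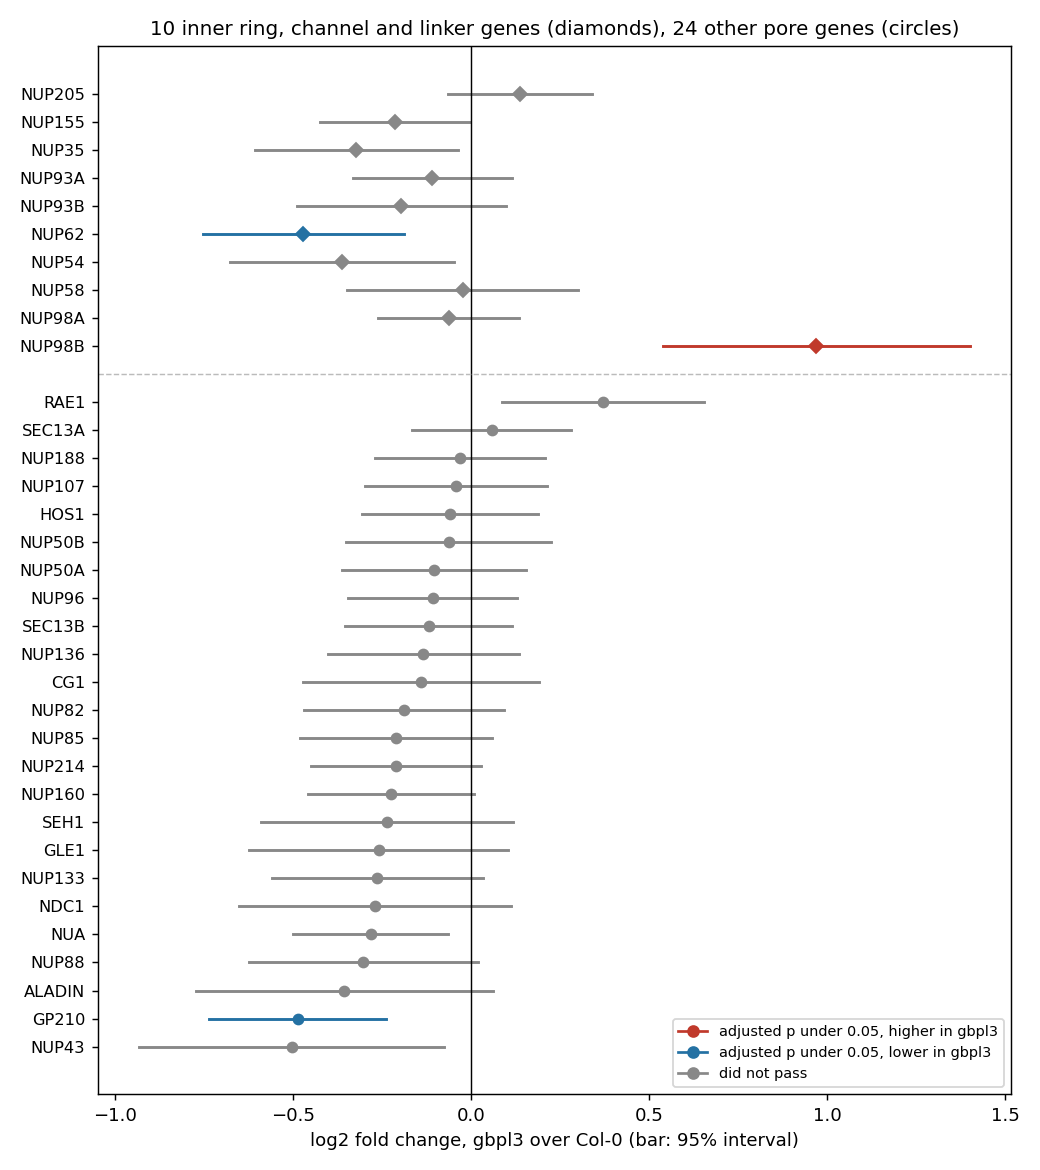
Log2 fold changes of gbpl3 over Col-0 with 95% intervals from the edgeR fit, for the 10 inner ring, channel and linker genes (diamonds) and 24 other nuclear pore genes (circles). NUP98B (0.97) is the only red point, NUP62 (-0.47) and GP210 (-0.49) are the blue points, and most grey points lie left of 0.

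Of 9 markers of dividing cells, all had log2 fold changes below 0 (median -0.29), and 1 was called, the mitotic cyclin gene CYCB1;2 (25.1 ± 3.03 CPM in gbpl3 and 40.5 ± 2.03 CPM in wild type, adjusted p = 0.00132). Their summed level was 210 to 227 CPM in gbpl3 and 261 to 276 CPM in wild type, and no marker was at 0 in any library. Over all genes 50.5% had log2 fold changes below 0, and 4.69% were called lower and 6.06% higher. Root markers summed to 106 to 132 CPM in gbpl3 and 198 to 279 CPM in wild type, with 2 of 6 lower and none at 0 in any library. Those 2 were TIP2;3, an aquaporin gene (4.61 CPM in gbpl3 and 87.6 CPM in wild type), and RCI3, a peroxidase gene (27.6 CPM in gbpl3 and 67.7 CPM in wild type), while the log2 fold changes of the other 4 lay between -0.41 (CASP1) and 0.20 (COBL9). Green tissue markers summed to 43839 to 51318 CPM in gbpl3 and 37881 to 42934 CPM in wild type, with 2 of 5 higher. The part of these differences, and of the seed storage RNA given above, in the pore gene values was not tested. In RNA of whole seedlings, fewer cells of a type and less RNA per cell cannot be told apart.

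**Figure D5:**
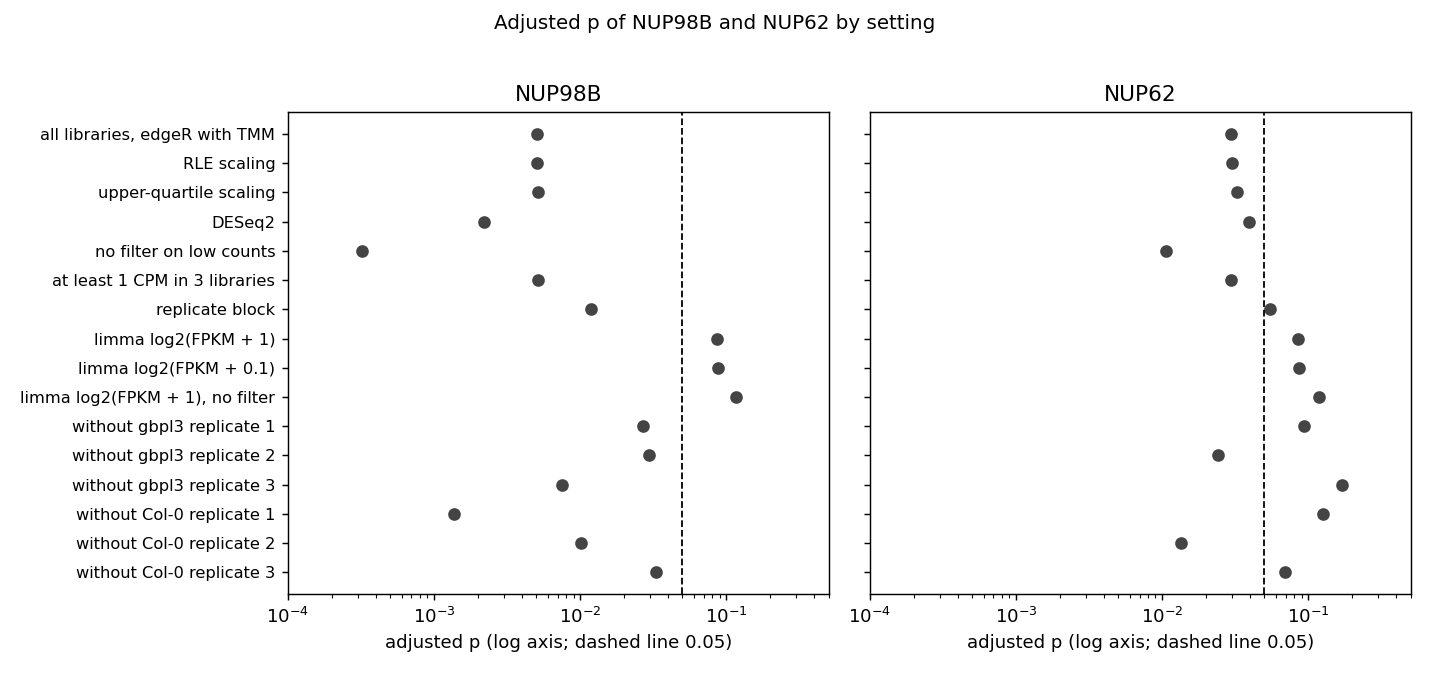
Adjusted p of NUP98B (left) and NUP62 (right) under each setting, on a log axis, with the threshold of 0.05 as a dashed line. NUP98B lies left of the line except with limma on FPKM (0.0858 to 0.116), and NUP62 lies right of it with limma, with the replicate number as a block and without any of 4 single libraries (0.0692 to 0.17).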

How the data were processed

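Strand-specific libraries of messenger RNA from about 50 mg of seedlings were sequenced, per the labels' protocols. Raw counts per gene and FPKM values are as the authors deposited them. The submitters' processing notes name HISAT2 2.0.4, HTSeq 0.6.1p1 and TAIR10, with no role given. Genes and coordinates come from TAIR10.1, which held 99.1% of identifiers.

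Here counts went through filterByExpr, TMM scaling and edgeR 4.0.16 in R 4.3.3, with a threshold of 0.05. On simulated counts for this comparison, 76.9% of 195 genes changed 2-fold and kept by the filter, among 20441 genes, were recovered, with 8.54% false calls. That false share is above the threshold of 0.05, and changes smaller than 2-fold were not simulated. The SE is the size of the log2 fold change over the square root of F, and 95% intervals are per gene. Libraries of a genotype differed beyond sampling noise (chi-square per degree of freedom 4.97 to 14.4). Alternatives were DESeq2 1.42.0, other scalings and filters, a replicate block, each library left out, and limma 3.58.1 on FPKM logged with a pseudocount of 1 or 0.1, filtered at a mean of 1 FPKM, or unfiltered with pseudocount 1. Proportions used exact permutation tests (scipy 1.17.1).

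Members and lists were chosen with earlier results of these data known. Named were all 10 genes, GBPL3, called genes of the pore list, NUP188, abundant markers and overlapping genes. CYCB1;2, RAE1, CASP1, COBL9 and the NUP98B neighbours were added after their values were seen, as were the settings tried for GP210.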

Additional observations from a re-analysis of the deposited data

How the results depend on the processing

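RLE and upper-quartile scaling, DESeq2 and both other count filters kept both calls among the 10 genes. With the replicate number as a block, 1 of the 10 was called (NUP98B, while NUP62 had adjusted p = 0.055) and 1534 genes in all, against 2222 without it. The labels name no pairs. Deviations of same-numbered libraries correlated at -0.046, -0.065 and 0.036, and not every library correlated best with its own number. With 3 libraries per genotype, such correlations cannot show whether the numbers pair the samples. Limma called 0 of the 10 with log2(FPKM + 1), with log2(FPKM + 0.1) and with no filter (5 of the 10 had an unadjusted p under 0.05 in each), and 814, 752 and 521 genes in all, with a median of all log2 fold changes of -0.061, -0.07 and -0.039. Without single libraries, 1 to 2 of the 10 and 949 to 2681 genes in all were called, the fewest without gbpl3 replicate 3, with 1071 without gbpl3 replicate 1 and 1377 without wild-type replicate 3. The log2 fold change of NUP58 was 0.12 without gbpl3 replicate 3 and 0.019 without wild-type replicate 3 (-0.13 to 0.12 over single libraries left out), and that of NUP188 was 0.046 without gbpl3 replicate 3 and 0.043 without wild-type replicate 2 (-0.14 to 0.046). None of these was called. The NUP93A share differed by 1.27 percentage points (gbpl3 minus wild type), and by -0.030 without gbpl3 replicate 3, with -0.030 to 2.76 over single libraries left out. The NUP98A share differed by -6.16 points, and by -7.23 to -5.17 without single libraries. The cause of these shifts was not tested. NUP98B rests on 60 to 211 counts per library, where counting error alone is 11.2% of the wild-type mean count and 7.86% of the mutant mean count, covering counting only.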
